A study of Mus musculus with 39 samples.

Results

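The colony-stimulating factor receptors are the 5 genes Csf1r, Csf2ra, Csf2rb, Csf2rb2 and Csf3r, taken by symbol from the 43430 genes of the count table and followed through all 8 groups of the study. Csf1r encodes the receptor tyrosine kinase for M-CSF (CSF-1) and IL-34. Csf2ra encodes the ligand-binding alpha subunit for GM-CSF (CSF-2), and Csf2rb the beta subunit that signals for GM-CSF, IL-3 and IL-5. Csf2rb2 is a mouse paralog of Csf2rb whose product serves IL-3. Csf3r encodes the receptor for G-CSF (CSF-3).

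Monocytes and macrophages depend on these receptors. M-CSF signalling through Csf1r keeps monocytes and many tissue macrophages alive, and GM-CSF made in the lung drives the maturation of alveolar macrophages through the Csf2ra and Csf2rb subunits, Jak2 and Stat5. G-CSF receptor is best known from neutrophils and their precursors and is also carried by monocytes.

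The study sequenced polyA RNA from lung cells of C57BL/6J mice isolated by flow cytometry, in 39 libraries. Naive mice gave the monocytes. Mice with lungs injured by bleomycin, which leaves fibrosis, gave alveolar macrophages derived from monocytes and gated on low Siglec F, a lectin of mature alveolar macrophages. The design text places the sort 21 days after bleomycin and starts daily intraperitoneal ISRIB or vehicle at day 7. ISRIB acts against the integrated stress response, in which stressed cells slow their protein synthesis.

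The 8 groups are young or old mice, saline or ISRIB, and monocytes of naive mice or macrophages of bleomycin-treated mice. Each holds 5 libraries, except young ISRIB macrophages with 4. Sources differ on age: young mice were 8 to 12 weeks in the sample labels but 3 to 5 months in the design text, and old mice over 18 months and 18 to 24 months, and no timing of ISRIB is stated for the naive mice. No source used here says which libraries came from separate animals, so p-values measure the spread between these libraries. Cell type, bleomycin and the sorting gate always go together and cannot be told apart in any comparison of macrophages with monocytes.

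Each library held 4595331 to 16056708 counts (median 8628240). The smallest library, young saline monocyte replicate 4, also had the fewest genes with a count (12324). Median Ly6c2, a classical monocyte marker, was 474 CPM (counts scaled to the size of the library) in monocytes and 1.40 in macrophages, and median Siglecf was 0.596 and 77.5 CPM. The classical monocyte list of 11 markers, which holds Chil3 and Fn1, did not separate the cell types by its sum, 12203 to 26607 CPM in monocytes and 13260.2 to 25741 in macrophages. The neutrophil gene Ly6g had no count in any macrophage library and in 15 of 20 monocyte libraries, and Stfa2 had none anywhere. The summed CPM of 15 neutrophil markers ranged from 414 to 867 in monocytes and from 60.8 to 163 in macrophages. Most of the monocyte sum was Cd177 (median 398 CPM, 289 to 578), also on the classical monocyte list, and Mmp8 (125, 84.7 to 378), with macrophage medians of 2.61 and 49.3 CPM. S100a8 went the other way, with medians of 4.41 CPM in monocytes and 24.3 in macrophages. So did Cxcr2 (0.586 and 4.45), Mmp9 (0.434 and 2.18) and Retnlg (0 and 1.01), at low levels. Il1r2 (7.62 and 0), Lcn2 (3.36 and 0.374), S100a9 (2.90 and 0.239), Ngp (0.338 and 0) and Camp (0.0877 and 0) had lower medians in macrophages.

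Csf2rb and Csf2rb2 need care, because reads from one can map to the other. They lie head to head on chromosome 15 of the mm10 build, Csf2rb2 at chr15:78282507-78305721 on the minus strand and Csf2rb at chr15:78325752-78353847 on the plus strand, 20030 bases apart. Their coding sequences (2688 bases in Csf2rb, 2634 in Csf2rb2) were 95.2% identical over 2628 aligned bases. Of the distinct 50-base words in each gene's transcripts, 892 were shared, 12.3% of those of Csf2rb and 18.4% of those of Csf2rb2, while no other pair of the 5 genes shared any. The first 120 coding bases are shown to make this visible, from transcripts Csf2rb-206 (exons between chr15:78335207 and chr15:78336379) and Csf2rb2-201 (between chr15:78297071 and chr15:78298229) of GENCODE vM21, with the 4 differing bases in capitals.
Csf2rb: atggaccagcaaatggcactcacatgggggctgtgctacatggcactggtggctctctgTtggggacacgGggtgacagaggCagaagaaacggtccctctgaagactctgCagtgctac
Csf2rb2: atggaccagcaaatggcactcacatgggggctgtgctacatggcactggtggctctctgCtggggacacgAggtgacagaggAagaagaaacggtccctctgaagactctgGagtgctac
How reads with more than 1 position were counted is not given in the sources used here, so each of the paralogs carries this uncertainty, and their sum is given below.

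Csf3r is at chr4:126024550-126044440 on the plus strand, Csf2ra at chr19:61223957-61228429 on the minus strand, and Csf1r on the plus strand of another chromosome. Exons of Csf1r overlap those of the antisense gene Hmgxb3 over 873 bases, 15.1% of the exonic length of Csf1r. Whether counting used strand is not given in the sources used here. Hmgxb3 had a median of 33.4 CPM in monocytes and 25.7 in macrophages, far below Csf1r.

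Csf2rb had no entry among the promoters used, and that of Csf1r is not shown. Promoters of the other 3 members are shown, whatever their direction of change between the cell types. They are the 250 bases before the RefSeq start on GRCm38.p6, 5′ to 3′ on the gene's strand, with each GAGGAA or its reverse complement TTCCTC in capitals. GAGGAA is the core bound by PU.1, the myeloid factor encoded by Spi1.
Csf3r (chr4:126024409-126024658, plus strand): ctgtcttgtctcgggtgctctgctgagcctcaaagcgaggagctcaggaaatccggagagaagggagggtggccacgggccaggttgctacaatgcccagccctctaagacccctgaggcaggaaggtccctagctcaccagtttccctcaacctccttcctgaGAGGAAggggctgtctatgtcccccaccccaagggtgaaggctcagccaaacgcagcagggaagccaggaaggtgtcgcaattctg
Csf2rb2 (chr15:78305722-78305971, minus strand): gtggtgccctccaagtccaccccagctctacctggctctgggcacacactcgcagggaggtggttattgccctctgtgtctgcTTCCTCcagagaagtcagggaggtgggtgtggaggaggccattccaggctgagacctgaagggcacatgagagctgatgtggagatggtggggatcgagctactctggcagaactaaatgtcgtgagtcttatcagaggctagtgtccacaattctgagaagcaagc
Csf2ra (chr19:61228419-61228668, minus strand): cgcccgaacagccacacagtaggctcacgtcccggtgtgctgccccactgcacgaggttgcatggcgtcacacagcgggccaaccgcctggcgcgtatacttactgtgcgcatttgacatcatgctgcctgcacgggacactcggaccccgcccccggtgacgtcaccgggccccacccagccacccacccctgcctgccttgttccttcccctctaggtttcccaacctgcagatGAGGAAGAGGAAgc
Csf3r and Csf2rb2 each held 1 GAGGAA, the second on the reverse strand, and Csf2ra held 2 directly adjacent. On both strands, 23.3% of 32851 RefSeq promoters of this length held GAGGAA. TTGCNNAA, a motif of C/EBP factors, was in none of the 3, and in 9.6% of all promoters. A match describes these letters only.

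The receptors stood in different orders in the 2 cell types. On the scale of median CPM per kilobase of exon, which allows levels of different genes to be set side by side, monocytes had Csf1r first (370), then Csf2ra (229), Csf3r (98.7), Csf2rb (63.3) and Csf2rb2 (17.8). Library ranges overlapped only between the neighbours Csf3r and Csf2rb. Macrophages had Csf2ra first (264), then Csf1r (203), Csf2rb (131), Csf2rb2 (73.4) and Csf3r (9.78). There the ranges overlapped between Csf2ra and Csf1r and between Csf1r and Csf2rb, but not further down. Csf3r, the middle member in monocytes, was thus the lowest in macrophages.

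**Figure D1:**
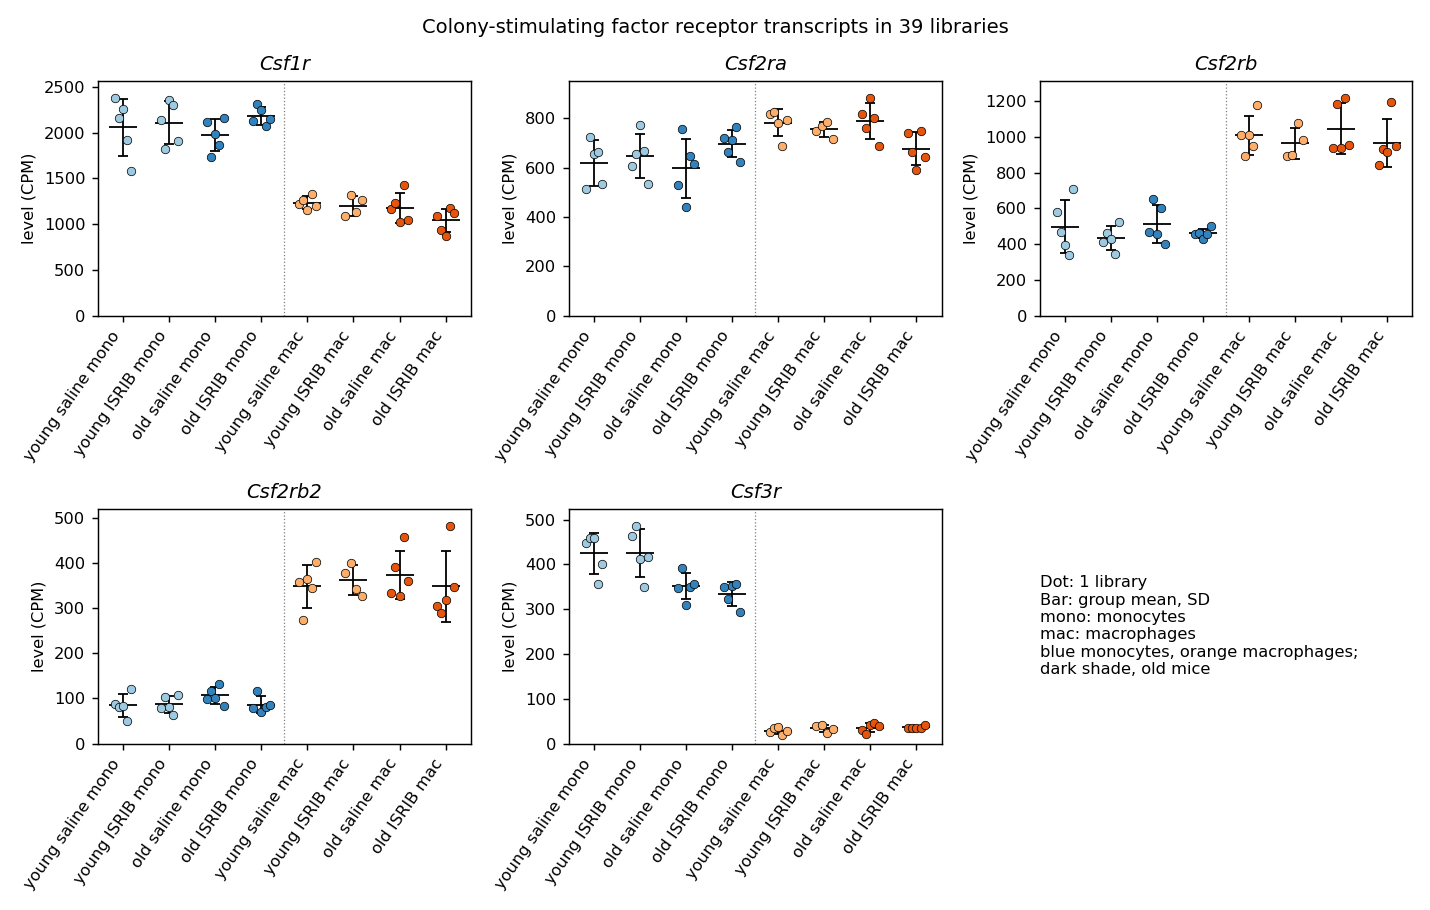
Level of each receptor transcript (y axis, CPM from 0) in every library of the 8 groups (x axis), with the mean and SD of each group as a bar. Monocytes are left of the dotted line and macrophages right of it; Csf1r and Csf3r sit lower in macrophages, Csf2rb and Csf2rb2 higher, and Csf2ra overlaps.

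All 5 receptors differed between macrophages and monocytes when the 4 matched group pairs were averaged, 3 higher and 2 lower. Csf3r fell 11.3-fold and Csf1r 1.79-fold, while Csf2rb2 rose 3.95-fold, Csf2rb 2.09-fold and Csf2ra 1.17-fold. These calls stand beside a very broad difference: 79.2% of the 13587 genes tested were called in this comparison, 39.9% higher and 39.2% lower, so being called is the background here and the sizes carry the description. The share of all genes whose libraries did not overlap between the cell types was not computed. A lack of overlap given below therefore does not set the receptors apart from other genes. In bulk samples, fewer cells of a type and less RNA per cell cannot be told apart. The 4 pairs were young saline (60.0% of genes called, 5 of 5 receptors), old saline (57.0%, 5 of 5), young ISRIB (57.3%, 4 of 5) and old ISRIB (59.4%, 4 of 5).

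Csf1r, the M-CSF receptor, was the most abundant of the 5 in CPM in every monocyte library. Its level was 2374, 2162, 2254, 1919 and 1587 CPM in young saline monocytes and 2143, 1827, 2359, 2307 and 1914 in young ISRIB monocytes. Old saline monocytes held 2119.7, 1729.8, 1987, 1867 and 2158 CPM and old ISRIB monocytes 2128, 2315, 2250.4, 2075 and 2152. In macrophages the level was 1222, 1267, 1157, 1334 and 1201 CPM with young saline and 1089.7, 1325, 1136 and 1265 with young ISRIB. Every one of these macrophage libraries lay below every monocyte library, and the same held in old mice. Old saline macrophages had 1171, 1228, 1024, 1433 and 1048 CPM and old ISRIB macrophages 1086, 941, 877, 1177 and 1128. The difference averaged -0.84 ± 0.05 on the log2 scale (SE; edgeR quasi-likelihood test, adjusted p = 8.44e-18), or 1.79-fold lower. By pair it was -0.74 in young saline, -0.81 in young ISRIB, -0.74 in old saline and -1.07 in old ISRIB mice.

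Csf3r, the G-CSF receptor, showed the widest gap. Monocytes of young mice had 448, 459.9, 459.8, 357 and 401 CPM with saline and 464, 486, 412, 349 and 417 with ISRIB. Monocytes of old mice had 348, 392, 309, 350.4 and 356 CPM with saline and 350.4, 322, 352, 356 and 293 with ISRIB. Macrophages were far lower. Young saline macrophages had 26.1, 35.3, 36.7, 19.4 and 27.8 CPM and young ISRIB macrophages 39.5, 40.3, 24.6 and 32.3. Old saline macrophages had 30, 20.7, 42.2, 44.9 and 39.3 CPM and old ISRIB macrophages 34.96, 35.5, 34.2, 35.5 and 41.0. The highest macrophage library (44.9 CPM) was far below the lowest monocyte library (293 CPM). The log2 difference averaged -3.50 ± 0.08 (edgeR, adjusted p = 9.99e-32). By pair the transcript was 14.6-fold lower in young saline, 12.4-fold in young ISRIB, 9.91-fold in old saline and 9.24-fold in old ISRIB mice. The summed neutrophil markers were lower in macrophages too, mostly through Cd177 and Mmp8, but single markers went both ways. S100a8, Cxcr2, Mmp9 and Retnlg had higher medians in macrophages, and Il1r2, Lcn2, S100a9, Ngp and Camp lower ones. Ly6g and Stfa2 were at or near 0 in both cell types. The part of the neutrophil markers in the Csf3r result was not tested.

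Csf2ra, the GM-CSF-binding subunit, was the member closest to equal between the cell types. Its level was 512, 726, 658, 666 and 536 CPM in young saline monocytes and 607, 655, 775, 666 and 535 in young ISRIB monocytes. Old saline monocytes held 532, 757, 439.6, 649 and 614 CPM and old ISRIB monocytes 722, 665, 714, 764 and 622. Young saline macrophages had 819.6, 826, 783, 689.6 and 794 CPM and young ISRIB macrophages 751, 768, 787 and 716. Monocyte and macrophage values overlapped in all 4 pairs. Old saline macrophages had 819, 759, 881, 804 and 688 CPM and old ISRIB macrophages 741, 663, 592, 749 and 642. The averaged log2 difference was 0.23 ± 0.06 (edgeR, adjusted p = 0.00036). Csf2ra was called higher in saline mice, by 0.34 in young (edgeR, adjusted p = 0.00892) and 0.40 in old (adjusted p = 0.00223). In ISRIB mice it was not called, with 0.22 in young (95% interval -0.02 to 0.46, adjusted p = 0.104) and -0.04 in old (-0.27 to 0.18, adjusted p = 0.766). Without young ISRIB monocyte replicate 3 the young ISRIB difference was 0.30 and called (edgeR, adjusted p = 0.0373). Tested directly over both ages, the ISRIB effect in macrophages minus that in monocytes was -0.28 for Csf2ra (95% interval -0.51 to -0.05) and not called (edgeR, adjusted p = 0.488). That comparison called 0% of genes in edgeR (1138 genes at an unadjusted p under 0.05) and 43 genes in DESeq2.

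Csf2rb, the shared signalling subunit, was higher in macrophages in each pair. Monocytes had 579, 468, 397, 339 and 706 CPM in young saline, 411, 464, 428, 344 and 527 in young ISRIB, 467, 650.0, 456, 602 and 400.3 in old saline and 458, 463, 429.7, 458 and 501 in old ISRIB mice. Macrophages had 1010.3, 893, 1011, 948 and 1178 CPM in young saline, 894, 898, 1077 and 982 in young ISRIB, 937, 1184, 939, 1215 and 952 in old saline and 839.9, 931, 915, 1192 and 952 in old ISRIB mice. No macrophage library reached down to the highest monocyte library, young saline replicate 5. The averaged log2 difference was 1.06 ± 0.07 (edgeR, adjusted p = 1.49e-16). The pairs lay close together, at 1.02 in both saline pairs, 1.15 in young ISRIB and 1.06 in old ISRIB mice.

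Csf2rb2, the IL-3-specific paralog, rose more than Csf2rb. Monocytes had 88.1, 81.3, 83.1, 50.1 and 119.9 CPM in young saline, 78.2, 104, 81.8, 62.2 and 108 in young ISRIB, 99.0, 117, 102, 132 and 84.2 in old saline and 79.8, 117, 69.9, 80.9 and 84.7 in old ISRIB mice. Macrophages had 359, 273, 365, 345 and 402 CPM in young saline, 378, 399.8, 344 and 327 in young ISRIB, 333, 392, 328, 458 and 360.1 in old saline and 305, 289.7, 318, 482 and 348 in old ISRIB mice. The cell types did not overlap, though the share of all genes without overlap was not computed. The averaged log2 difference was 1.98 ± 0.09 (edgeR, adjusted p = 7.12e-23), with 2.04, 2.06, 1.81 and 2.01 in young saline, young ISRIB, old saline and old ISRIB mice. With the counts of both paralogs added, which removes any exchange of reads between them, the difference was 1.26.

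**Figure D2:**
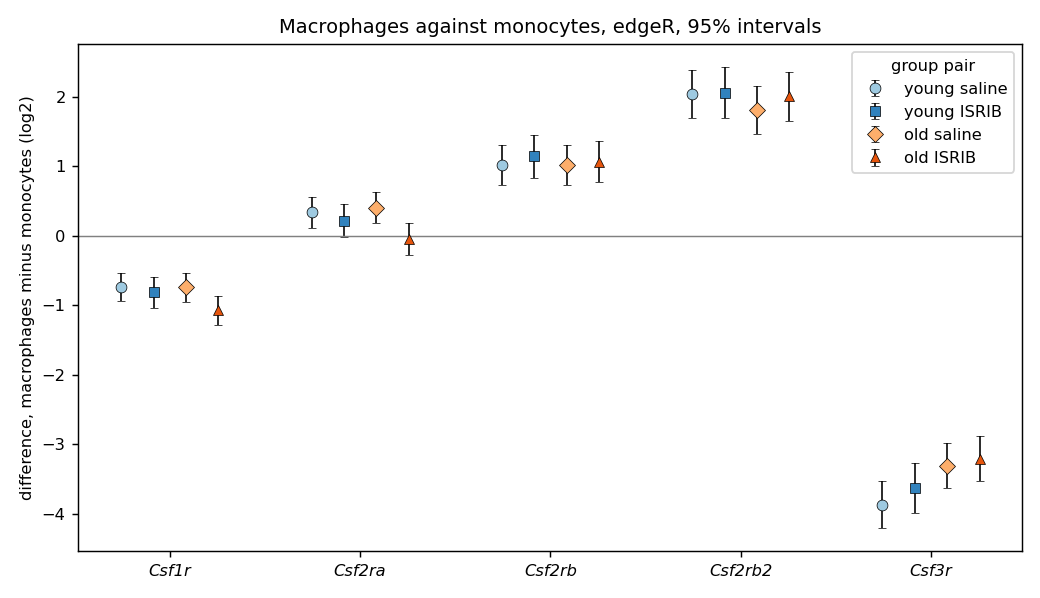
Log2 difference between macrophages and monocytes (y axis) for each receptor (x axis) in the 4 matched group pairs, from edgeR with 95% intervals. Csf1r and Csf3r lie below 0 and Csf2rb and Csf2rb2 above it in every pair; for Csf2ra the intervals of both ISRIB pairs include 0.

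Ratios of receptors within a library do not depend on how libraries are scaled, and 4 were compared. The GM-CSF and IL-3 beta subunits together, relative to Csf1r, had a median ratio of counts of 0.257 in monocytes (0.176 to 0.521) and 1.17 in macrophages (0.92 to 1.42). Csf2ra relative to both beta subunits went from 1.20 in monocytes (0.648 to 1.71) to 0.547 in macrophages (0.447 to 0.708). Csf2rb2 relative to Csf2rb went from 0.186 (0.148 to 0.253) to 0.356 (0.306 to 0.445). Counts of the beta subunits thus went from well below those of Csf1r to about the same number or more. Csf3r relative to Csf1r went from 0.180 (0.136 to 0.266) to 0.0305 (0.0146 to 0.0413). These are ratios of counts, not of molecules, since the genes differ in length.

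All 16 ratio comparisons between cell types were called, among 48 computed (two-sided exact permutation test, Benjamini-Hochberg over 48). Ratios of other genes were not computed, and edgeR called 79.2% of genes between the cell types, so these calls do not set the receptors apart. The smallest exact p is 0.00794 for 5 against 5 libraries and 0.0159 for 4 against 5, and the adjusted p was 0.0346 or 0.0448 in each. On the log2 scale, beta subunits to Csf1r differed by 1.99 in young saline, 2.17 in young ISRIB, 1.95 in old saline and 2.33 in old ISRIB mice. Csf2rb2 to Csf2rb differed by 1.03, 0.93, 0.78 and 0.95 in the same order. Csf2ra to the beta subunits differed by -0.92, -1.13, -0.78 and -1.29, with overlap in the young saline pair. Csf3r to Csf1r differed by -3.17, -2.85, -2.61 and -2.13. Of the 32 comparisons within a cell type, 1 was called and 3 had an unadjusted p under 0.05. The call was Csf2rb2 to Csf2rb in saline monocytes, 0.208 in old and 0.169 in young mice (geometric means; difference 0.30 on the log2 scale, n = 5 and 5, exact p = 0.0159, adjusted p = 0.0448). Their values overlapped, and the call was lost in 8 of the 10 sets that left out 1 of these libraries (adjusted p up to 0.0896). Its adjusted p comes from a family of 48 that includes the 16 comparisons between cell types, whose low p-values lower it. Adjustment over the 32 comparisons within a cell type alone was not run.

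**Figure D3:**
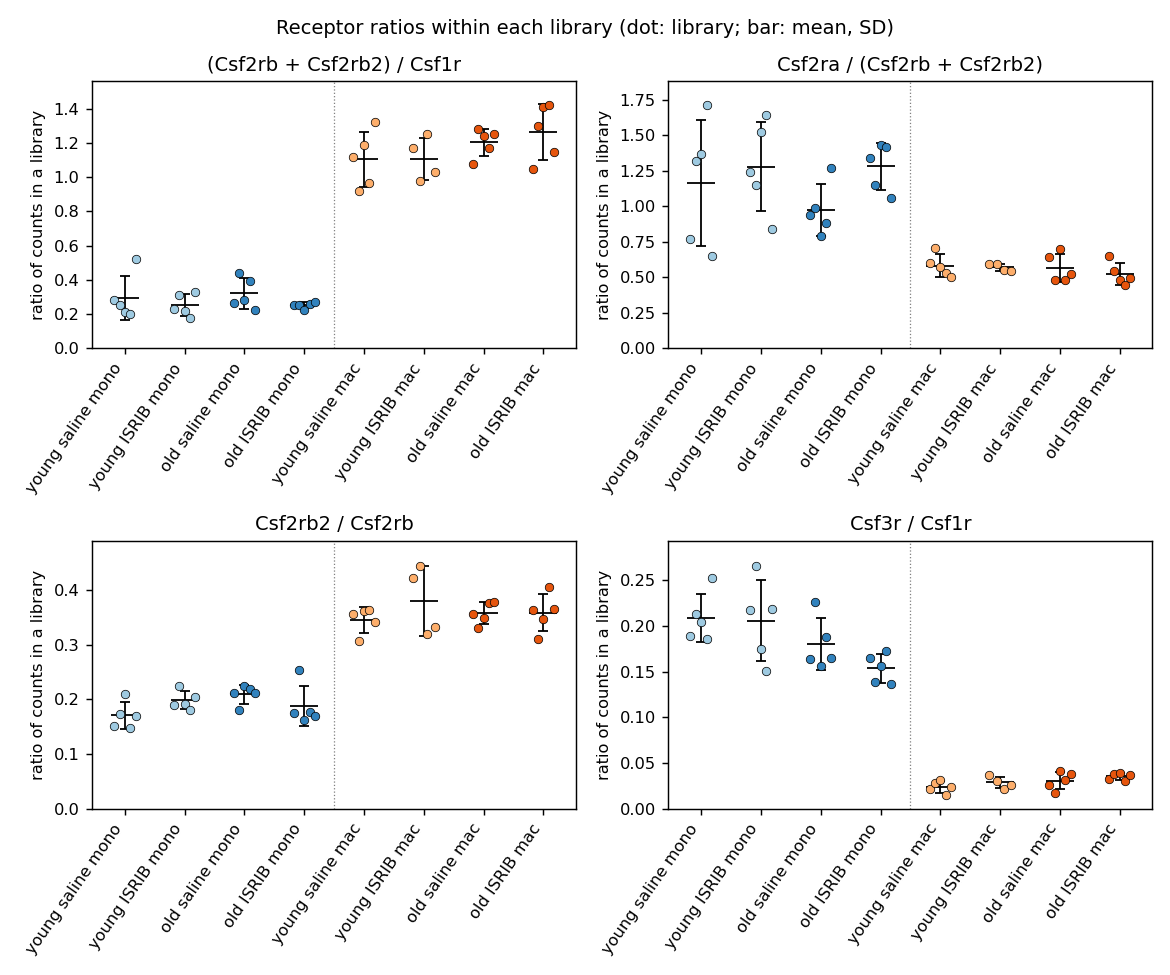
Ratio of receptor counts in each library (y axis, from 0) by group (x axis), with the group mean and SD. Beta subunits to Csf1r run from 0.92 to 1.42 in macrophages against at most 0.521 in monocytes, and Csf3r to Csf1r from 0.0146 to 0.0413 against at least 0.136.

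Within a cell type, neither ISRIB nor age gave a call for any receptor. Over 14 comparisons of 5 receptors, edgeR called 0 of 70 values, 6 had an unadjusted p under 0.05, DESeq2 called 1 and limma voom 0. ISRIB in old and in young macrophages called 0% of the 12171 genes tested, and ISRIB averaged over age called 0.830%. Age called 1.16% of genes in saline macrophages, 0.937% in ISRIB macrophages and 4.86% averaged over treatment. In monocytes, ISRIB called 0% of 12170 genes in each comparison, and age called 0.0247% in saline, 0% in ISRIB and 0.123% averaged over treatment. The difference of the ISRIB effect between old and young mice called 0% in each cell type. Where edgeR called 0%, 621 to 1513 genes had an unadjusted p under 0.05, limma voom called at most 1 gene, and DESeq2 called 43 genes in old and 105 in young macrophages for ISRIB, 14 in old monocytes for ISRIB, 1 for ISRIB averaged over age in monocytes and 22 in ISRIB monocytes for age.

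Csf3r in monocytes gave the lowest p of the within-cell-type values. Group means were 425 ± 45.4 CPM in young saline, 425 ± 53.0 in young ISRIB, 351 ± 29.3 in old saline and 335 ± 26.99 in old ISRIB monocytes (SD, n = 5 each). Apart from old replicate 2 (392 CPM), every saline monocyte library of old mice lay below every one of young mice, and with ISRIB young replicate 4 (349 CPM) overlapped the old libraries. Old minus young was -0.26 in saline (95% interval -0.47 to -0.05; edgeR, adjusted p = 0.429) and -0.35 in ISRIB (-0.56 to -0.14; adjusted p = 0.381). Averaged over treatment it was -0.31 ± 0.07 (95% interval -0.45 to -0.16), and it missed the threshold (edgeR, unadjusted p = 0.00028, adjusted p = 0.119). DESeq2 called it (adjusted p = 0.0107) and limma voom did not (adjusted p = 0.0979). Leaving out each library in turn gave adjusted p from 0.0361 to 0.221 in edgeR, with the call only without young saline replicate 4, the shallowest library.

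Csf3r in macrophages did not show that direction. Means were 29.04 ± 7.09 CPM in young saline, 34.2 ± 7.33 in young ISRIB, 35.4 ± 9.97 in old saline and 36.2 ± 2.72 in old ISRIB macrophages (SD, n = 5, 4, 5 and 5). Old minus young averaged over treatment was 0.18 (95% interval -0.10 to 0.46; edgeR, adjusted p = 0.529). The age effect in macrophages minus that in monocytes called 0.743% of genes; for Csf3r it was 0.49 (95% interval 0.18 to 0.80) and not called (edgeR, adjusted p = 0.13). Without old saline macrophage replicate 2 it was 0.56 and called (edgeR, adjusted p = 0.0291).

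Csf2ra and Csf1r were the members with the lowest p in macrophages. Csf2ra means were 782 ± 54.9 CPM in young saline, 756 ± 30.1 in young ISRIB, 790.3 ± 72.0 in old saline and 678 ± 66.9 in old ISRIB macrophages. ISRIB minus saline was -0.22 in old mice (95% interval -0.38 to -0.06; edgeR, unadjusted p = 0.00951, adjusted p = 0.406) and -0.05 in young (-0.22 to 0.12; adjusted p = 0.847). The difference between these ISRIB effects was -0.17 (-0.41 to 0.06; edgeR, adjusted p = 0.973). Csf1r means were 1236 ± 67.7 CPM in young saline, 1204 ± 109.6 in young ISRIB, 1181 ± 164 in old saline and 1042 ± 128 in old ISRIB macrophages. Old minus young was -0.07 in saline (-0.26 to 0.12; edgeR, adjusted p = 0.852) and -0.21 in ISRIB (-0.41 to -0.01; adjusted p = 0.386), and ISRIB minus saline in old mice was -0.18 (-0.37 to 0.01; adjusted p = 0.568). The mature alveolar macrophage markers moved alongside: the summed level of 11 was 4754 to 7432 CPM in young saline, 4909.7 to 8263 in young ISRIB, 4781 to 9291 in old saline and 6801 to 14322 in old ISRIB macrophages. Most of each sum was Chil3 (3612 to 11978 CPM in macrophages), also on the classical monocyte list. The mean log2(CPM + 1) of the 11, which weighs each marker alike, was 5.57 to 5.83, 5.90 to 6.07, 5.91 to 7.10 and 6.67 to 7.81 in the same order. The summed level of 10 B cell markers was 6.68 to 29.7, 10.4 to 31.03, 28.02 to 399.6 and 159 to 578 CPM in the same order. Their part in the values of Csf1r and Csf2ra was not tested.

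Within cell types, the intervals of the beta subunits were wider in monocytes than in macrophages. In macrophages, ISRIB minus saline was -0.09 for Csf2rb (95% interval -0.24 to 0.06) and -0.02 for Csf2rb2 (-0.21 to 0.16) averaged over age, and old minus young was 0.03 (-0.12 to 0.18) and 0.02 (-0.16 to 0.20) averaged over treatment. In monocytes the same averages were -0.18 (-0.42 to 0.06) and -0.14 (-0.41 to 0.13) for ISRIB, and 0.07 (-0.17 to 0.31) and 0.17 (-0.10 to 0.44) for age. The largest single values were for Csf2rb2 in monocytes, 0.35 for age in saline mice (-0.03 to 0.74; edgeR, adjusted p = 0.618) and -0.32 for ISRIB in old mice (-0.71 to 0.06; adjusted p = 0.742). For Csf1r in monocytes the averages were 0.08 for ISRIB (-0.07 to 0.24) and 0.00 for age (-0.15 to 0.15), and for Csf2ra 0.13 (-0.06 to 0.33) and 0.03 (-0.16 to 0.23). None of these was called.

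**Figure D4:**
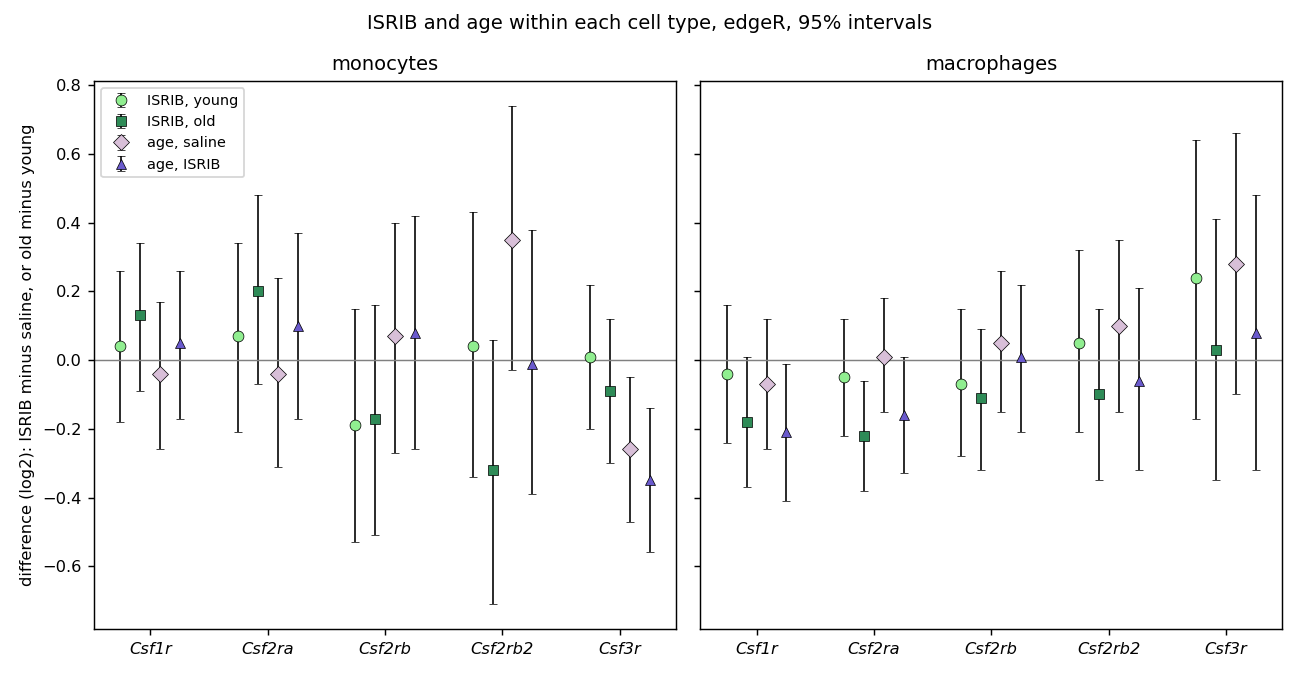
Log2 difference (y axis) of each receptor (x axis) for ISRIB minus saline in young and old mice and for old minus young in saline and ISRIB mice, from edgeR with 95% intervals, in monocytes (left) and macrophages (right). None is called; the intervals for age and Csf3r in monocytes, for ISRIB in old macrophages and Csf2ra, and for age in ISRIB macrophages and Csf1r leave out 0.

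Among monocyte libraries, Csf1r and the beta subunits followed opposite monocyte subsets. Classical monocytes (Ly6c2, Ccr2) are the inflammatory subset, and nonclassical monocytes (Treml4, Ace, Nr4a1) patrol the vessel wall and carry much Csf1r. The marker level of a library is the mean log2(CPM + 1) of 13 nonclassical or 11 classical markers, and 20 relations over both cell types form the family; these relations were chosen after seeing the data. Csf1r rose with nonclassical markers over 20 libraries (Pearson r = 0.86, adjusted permutation p = 0.0001; Spearman rho = 0.76, adjusted p = 0.0013). Leaving out the 2 libraries farthest from the median left r = 0.76, and removing group means left r = 0.86. Csf2rb rose with classical markers (r = 0.81, adjusted permutation p = 0.0001; rho = 0.80, adjusted p = 0.0012), with r = 0.76 without the 2 farthest libraries and 0.84 with group means removed. Csf2rb2 did so as well (r = 0.70, adjusted permutation p = 0.0024; rho = 0.72, adjusted p = 0.0026), with r = 0.64 and 0.74.

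Some of the monocyte relations lost their call without the 2 libraries farthest from the median. With group means removed, r was -0.69 for Csf2rb and -0.54 for Csf2rb2 against nonclassical markers, and -0.61 for Csf1r against classical markers. These stayed called (adjusted permutation p = 0.0033, 0.04 and 0.015), while Csf2ra against classical markers did not (r = -0.51, adjusted permutation p = 0.055). Csf2rb against nonclassical markers had r = -0.72 (adjusted permutation p = 0.0013; rho = -0.59, adjusted p = 0.024), but -0.52 without the 2 farthest libraries (adjusted p = 0.10). Csf1r against classical markers had r = -0.66 (adjusted permutation p = 0.0054; rho = -0.57, adjusted p = 0.028), then -0.51 (adjusted p = 0.10). Csf2rb2 against nonclassical markers (r = -0.55, adjusted permutation p = 0.028; rho = -0.55, adjusted p = 0.035) and Csf2ra against classical markers (r = -0.58, adjusted permutation p = 0.017; rho = -0.63, adjusted p = 0.015) lost their calls too, at -0.41 and -0.48. Csf3r followed neither list, with r = 0.02 for nonclassical (rho = -0.02; adjusted permutation p = 0.94 for each) and 0.22 for classical markers (rho = 0.15; adjusted p = 0.52 and 0.68).

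In macrophages, Csf1r ran against the mature alveolar macrophage markers. Over 19 libraries r was -0.80 (adjusted permutation p = 0.00013; rho = -0.77, adjusted p = 0.0013), -0.77 without the 2 farthest libraries and -0.75 with group means removed. Csf2ra had r = -0.63 (adjusted permutation p = 0.011; rho = -0.54, adjusted p = 0.041), but -0.32 without the 2 farthest libraries and -0.41 with group means removed, neither called. Csf2rb, Csf2rb2 and Csf3r were not called, at r = -0.20, -0.18 and 0.36 (rho = -0.10, -0.20 and 0.29; adjusted permutation p = 0.56, 0.56 and 0.24 for r). No receptor was called against the classical markers in macrophages, with r from -0.23 to 0.09. In monocytes, the spread of subset markers between libraries of a group therefore went with that of Csf1r, Csf2rb and Csf2rb2. In macrophages, the spread of the mature alveolar macrophage markers within groups went with that of Csf1r only. Whether these spreads came from the share of cells or from RNA per cell was not tested.

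**Figure D5:**
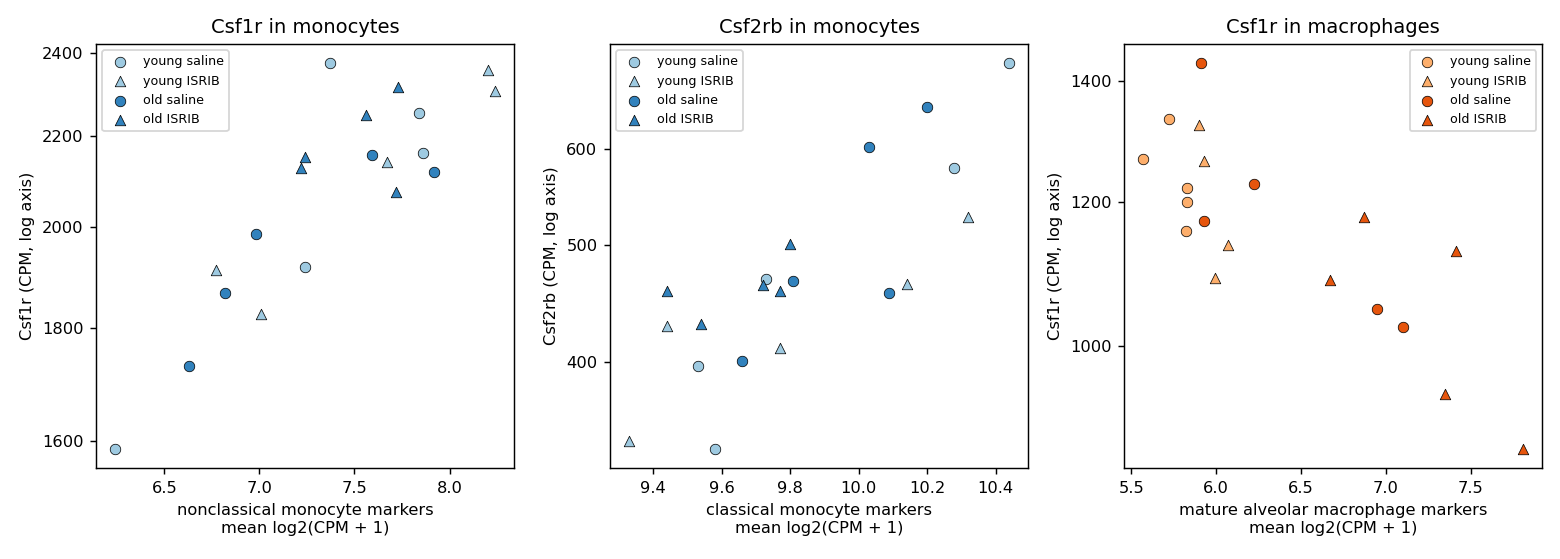
Receptor level (y axis, CPM, log axis) against the mean log2(CPM + 1) of a marker list (x axis), 1 point per library: Csf1r and nonclassical markers in 20 monocyte libraries, Csf2rb and classical markers in the same libraries, Csf1r and mature alveolar macrophage markers in 19 macrophage libraries. The first and second rise (r = 0.86 and 0.81) and the third falls (r = -0.80).

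The genes most like each receptor, by Pearson correlation of log2 CPM over the libraries of a cell type among genes of at least 20 CPM, are given with no test. Over 20 monocyte libraries and 6448 genes, Csf1r was most like Ace (0.93), Nxpe4 (0.91) and Slc12a2 (0.91); Ace is also among the nonclassical markers. Csf2rb was most like Ccr1, Chsy1 and Sbno2 (0.92 each), and Csf2rb2 was most like Chsy1 (0.88), Eps8 (0.87) and Hnrnpll (0.86). Csf2ra was most like Son (0.86), Fnbp4 (0.84) and Dennd1c (0.83), and Csf3r most like Stat6 (0.77), Kmt5a (0.76) and Fanca (0.76). Chsy1 was thus shared by both beta subunits. Over 19 macrophage libraries and 6640.0 genes, Csf1r was most like Plxnd1 (0.91), H6pd (0.90) and Efhd2 (0.89), and Csf2rb most like Bub1b (0.80), Cfb (0.79) and Clec4e (0.78). Csf2rb2 was most like Rnf149 (0.76), Acbd5 (0.74) and its paralog Csf2rb (0.73). How far reads were exchanged between these paralogs was not measured. Csf2ra was most like Urm1 (0.82), Aldh16a1 (0.79) and Crlf2 (0.77), and Csf3r most like Vwf (0.81), Gaa (0.80) and Ptgir (0.80). No list was common to both cell types.

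Of the ligands, only Csf1, which encodes M-CSF, was expressed at a level that could be tested. It was 4.03-fold higher in macrophages, with means of 22.7 against 5.58 CPM (log2 difference 2.01 ± 0.18; edgeR, adjusted p = 8.07e-13), opposite in direction to its receptor Csf1r. Within macrophages its log2 difference was 0.71 for ISRIB (edgeR, adjusted p = 0.096) and 0.52 for age (adjusted p = 0.195), averaged over the other factor. With no filter on low counts both were called (adjusted p = 0.000459 and 0.0152), and without young ISRIB macrophage replicate 3 the ISRIB value was 0.84 and called (adjusted p = 0.015). Csf2, encoding GM-CSF, had 0 counts in 19 macrophage libraries, which allows up to 0.0182 CPM (3 counts over all of them; counting error only), and 8 counts in 2 monocyte libraries. Csf3 had 0 and 3 counts in all macrophages and all monocytes, Il5 0 and 1, Il34 2 and 3, and Il3 none in either (up to 0.0173 CPM in monocytes). Among partner subunits, Il3ra, which pairs with the beta subunits to bind IL-3, was 1.75-fold lower in macrophages (18.7 against 32.2 CPM; log2 difference -0.81 ± 0.11; edgeR, adjusted p = 7.31e-09). Il5ra had 1 and 5 counts.

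Signalling genes downstream of the receptors were mostly lower in macrophages. Of 19 kinases and adaptors, 3 were higher, 13 lower and 3 not called (median log2 difference -0.35, against 0 over all genes tested; edgeR), beside 39.9% of all genes higher and 39.2% lower. Src was 58.4-fold higher, while Pik3cd (a PI3-kinase catalytic subunit) was 3.82-fold, Plcg2 2.51-fold and Lyn 2.41-fold lower. Stat5b (2.59-fold) and Stat5a (1.26-fold), which carry GM-CSF signals, were lower too, as were Stat3 (1.64-fold), known from G-CSF signalling, and Stat6 (1.55-fold).

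Of 14 negative regulators, 5 were higher and 9 lower (median -0.57), with the share higher close to the 39.9% of all genes. Socs2 (91.1-fold), Dok2 (7.69-fold) and Cish (4.97-fold) were higher; Socs2 and Cish are known targets of STAT5 that dampen cytokine signalling. Cbl, an E3 ligase that removes Csf1r from the surface, was 3.93-fold lower. Of 14 transcription factors known to act on these receptors or with them, 5 were higher and 9 lower (median -0.66), the same counts against the same 39.9% and 39.2%. Bhlhe41 was 1280-fold, Pparg 15.1-fold and Bhlhe40 3.30-fold higher, and Ets2 3.39-fold lower. Spi1, named for the promoter motif after its value was seen, was 1.25-fold lower (edgeR, adjusted p = 3.15e-08).

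Genes driven by GM-CSF in alveolar macrophages were mainly higher in macrophages, 21 of 23, with Pim1 3.24-fold lower and Ccl24 not called (median 5.53; edgeR), beside 39.9% of all genes higher. The largest were Bhlhe41, Atp6v0d2 (1260-fold), Car4 (1080-fold) and Plet1 (675-fold). In monocytes, Car4 had a median of 0 CPM with no count in 11 of 20 libraries, and Plet1 0.694 CPM with none in 3. The 5 CPM for naming a gene was asked only of the group with the higher mean. Large folds here and above can thus rest on values near 0 and are loosely set. The GM-CSF-driven list holds all 11 mature alveolar macrophage markers. All 23 of its genes passed the filter on low counts in the macrophage fit, and 14 in the monocyte fit. Genes that pass only through macrophages are high there by selection, so 21 of 23 is a description and not a test. Of 17 genes associated with M-CSF, Csf1r itself among them, 12 were higher and 5 lower (median 3.52), beside 39.9% and 39.2% of all genes, led by C1qa (339-fold), C1qc (204-fold), Mertk (179-fold) and C1qb (91.2-fold), all higher. Csf1r was 1 of the 5 that fell. All 17 passed the filter in the macrophage fit and 15 in the monocyte fit, so this count has the same limit.

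Other receptors give a comparison. Of 16 tested cytokine receptors of myeloid cells, 6 were higher and 10 lower (median -0.51; edgeR), with the share higher close to the 39.9% of all genes (39.2% were lower). Lifr (15.9-fold), Il6ra (4.36-fold) and Il10ra (3.68-fold) were lower and Il7r was 4.12-fold higher. Of 3 tested receptors of the kinase class of Csf1r, 2 were lower and 1 not called. In the monocyte fit 2 of this class passed the filter, and in the macrophage fit 1. Flt3, also a dendritic cell marker, was 101-fold lower. Its macrophage median was 0.329 CPM, with no count in 5 of 19 libraries. Csf3r thus lay between Lifr and Il6ra in the size of its fall.

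While the receptors gave no call for age, part of the genes on the lists linked with them did in macrophages. Whether the receptors drove those genes in these cells was not tested. Averaged over treatment, 12 of 23 GM-CSF-driven genes were higher in old macrophages, none lower (median 0.48), beside 3.12% of all genes higher and 1.74% lower (edgeR). The largest were Krt79 (6.62-fold), Marco (4.76-fold), Fabp1 (4.22-fold) and Cidec (3.23-fold), and the receptor subunits Csf2ra and Csf2rb stood at log2 -0.07 and 0.03. The B cell sums given above and the mature alveolar macrophage sums had higher medians in old than in young macrophages with either treatment. All 11 of those alveolar markers are on this list, and most of their sum was Chil3. The summed level of 11 T and NK cell markers was 5.04 to 7.88 CPM in young saline, 6.06 to 11.1 in young ISRIB, 8.72 to 27.8 in old saline and 16.7 to 40.5 in old ISRIB macrophages. Their part in these counts was not tested. Of 17 M-CSF-associated genes, 3 were lower, C1qa (1.43-fold), C1qb (1.42-fold) and C1qc (1.40-fold), beside -0.14 for Csf1r, which was not called; in a fit of all 39 libraries 0 were called. Socs2 (1.29-fold), Adam10 (1.26-fold) and Inpp5d (1.15-fold) among negative regulators and Plcg2 (1.17-fold) were lower, and Bhlhe41 was 1.40-fold higher. Without young saline macrophage replicate 4, the negative regulators called lower numbered 1 and no kinase or adaptor was called.

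For ISRIB averaged over age in macrophages, edgeR called 0.452% of all genes higher and 0.378% lower. Cd36 (1.70-fold), Siglecf (1.48-fold) and Atp6v0d2 (1.27-fold) of the 23 GM-CSF-driven genes and Mrc1 (1.28-fold) were higher, and Dok2 (1.48-fold), Il21r (1.42-fold) and Socs3 (1.34-fold) lower (edgeR). These counts move with single libraries: GM-CSF-driven genes called higher ran from 1 (without young ISRIB macrophage replicate 1 or 2) to 8 (without old saline macrophage replicate 3), and 0 were called in a fit of all 39 libraries. In monocytes no gene of these lists was called for age or ISRIB by edgeR. This stood beside 0% of all genes for ISRIB and at most 0.123% for age. Only 14 of the 23 GM-CSF-driven and 15 of the 17 M-CSF-associated genes were tested there.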

How the data were processed

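The authors deposited raw counts per gene for 39 libraries, 43430 genes in all. The libraries were made from 3 ng of polyA-selected RNA with NEBNext Ultra RNA and run on an Illumina NextSeq, per the labels' protocols and the design text. Per the submitters' processing notes the tools were bcl2fastq 2.19.1, FastQC, Trimmomatic 0.36, STAR 2.6.0 and HTSeq 0.11.2, with the mm10 build; for strand setting, annotation and multi-mapped reads, the sources used here give nothing. Of the rows, 42546 (98.0%) matched GENCODE vM21, which gave lengths and positions.

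Counts were tested with edgeR 4.0.16 (R 4.3.3; TMM scaling, filterByExpr with minimum count 10 and total 15, quasi-likelihood test, Benjamini-Hochberg over all genes, threshold 0.05), separately in macrophages (12171 genes), monocytes (12170) and, between cell types, in all libraries (13587). All 5 receptors passed each filter. Biological variation (BCV) was 0.206, 0.258 and 0.246. CPM use TMM over all libraries. Ratios used counts + 0.5, and correlations 100000 permutations. DESeq2 1.42.0, limma 3.58.1 (voom), other scaling, no filter, a replicate block and leaving out each library were alternatives. The edgeR step was tested on simulated data.

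The members and lists were chosen with earlier results of these data known. Named were the 5 receptors, all 6 ligands, both partner subunits, per list up to 4 called genes, those with the largest change and 5 CPM or more in the group with the higher mean, and the 3 genes most like each receptor.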

Additional observations from a re-analysis of the deposited data

Results flagged for a closer look

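Of 72 groups of values checked (each receptor's CPM and each log2 ratio within a group), 3 held a library far from the others by Dixon's test, and chance alone gives about 1 in 20. Csf3r in old ISRIB macrophages was 41.0 CPM in replicate 5, above 34.2 to 35.5 CPM in the other libraries of that group. The log2 ratio of Csf2rb2 to Csf2rb was -2.48 in old saline monocyte replicate 2, the lowest of its group. The same ratio was -1.99 in old ISRIB monocyte replicate 2, the highest of its group. No difference in the ISRIB effect between ages, or in the age or ISRIB effect between cell types, was called for a receptor.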

How the results depend on the processing

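Between cell types, Csf1r, Csf2rb, Csf2rb2 and Csf3r kept direction and call under every alternative run, with all 39 libraries or 1 left out, and library totals in place of TMM moved the median of all genes by -0.08 and no filter by -0.12. Members called changed for macrophages against monocytes in young ISRIB mice (4, and 5 without young ISRIB monocyte replicate 3), for age averaged over treatment in monocytes (1 with DESeq2, 0 to 1 leaving out a library), and for the age effect in macrophages minus that in monocytes (0 to 1). With all libraries, edgeR called 57.3%, 0.123% and 0.743% of all genes in these comparisons, and DESeq2 called 83 of 12170 genes in the age comparison of monocytes. Ratio comparisons called ranged from 8 to 19 when 1 library was left out; fewer samples raise the smallest exact p (8 without young saline monocyte replicate 1, 2 or 4, 11 without any young ISRIB library, 19 without old ISRIB monocyte replicate 2).

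Signs turned only for values near 0 and for none called. Csf1r with age in monocytes was -0.00 with no filter, -0.01 in a fit of all 39 libraries, and -0.04 to 0.02 leaving out a library. On leaving out a library, Csf2ra with age in monocytes ranged from -0.02 to 0.08, Csf2rb and Csf2rb2 with age in macrophages from -0.01 to 0.06 and -0.05 to 0.05, Csf2rb2 with ISRIB in macrophages from -0.10 to 0.02, and Csf2ra between cell types in old ISRIB mice from -0.08 to 0.00. Csf3r against nonclassical markers was -0.05 with group means removed. The cause was not tested.

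GM-CSF-driven genes called higher with ISRIB in macrophages numbered 3, against 11 with no filter, 5 with DESeq2 and 8 with the replicate block; with age they numbered 12, against 8 to 15. Residuals of same-numbered libraries correlated from -0.15 to 0.17 in macrophages (median 0) and -0.19 to 0.24 in monocytes (median -0.01). A correlation over all genes can miss pairing in some genes, so it does not decide whether the replicate numbers pair libraries. Adding the replicate block moved the genes called in macrophages from 101 to 343 for ISRIB averaged over age. For age averaged over treatment it moved them from 592 to 497. With the replicate block, 5, 5, 4, 4 and 5 receptors were called between cell types in young saline, old saline, young ISRIB and old ISRIB mice and their average. Beside them stood 8037, 7676, 7681, 8000 and 10702 of all 13587 genes. Within cell types the block gave 0 receptors, beside 0 to 497 of 12171 genes in macrophages and 0 to 12 of 12170 in monocytes. Csf3r with age in monocytes was -0.30 with the block (edgeR, adjusted p = 0.186). Csf3r had as few as 132 counts in a macrophage library.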
